A study of Rattus norvegicus with 12 samples.

Results

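Cell division genes were followed in the mammary glands of ovariectomized rats that ate casein or soy protein isolate, with or without estradiol (E2). The set held 59 gene symbols taken as a fixed list, 22 for DNA replication and entry into S phase and 37 for mitosis. A gene was measured when the array carried a probe set annotated to its symbol alone, and 52 of the 59 were, 19 for replication and 33 for mitosis, among 14217 measured genes. Cdc6, Gins2, Rrm2, Nek2, Ndc80, Tpx2 and Ncapg had no such probe set and have no value here.

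Female Sprague-Dawley rats ate soy protein isolate or casein, the main protein of milk, from postnatal day 30 to day 64. All were ovariectomized on day 50, so every group, controls included, lacked its ovaries, and E2 was then delivered by implanted osmotic pump to part of the rats on each diet for 14 days. Abdominal glands were collected on day 64. Each diet gave a vehicle group (casein, soy) and an E2 group (casein plus E2, soy plus E2), 4 in all, each with 3 arrays of pooled RNA. The labels do not say how many rats a pool held or whether pools held different rats, and p-values here measure only how far pools differ, which may be technical. One label field names hepatic expression while the source field names mammary gland, and the samples were taken as mammary gland. In the casein plus E2 group, pools 2 and 3 held almost identical values (the SD of their difference was 0.163 over all probe sets, against 0.301 or more in the 65 other pairs) and were averaged into 1 sample, which leaves 2 samples in that group and 3 in each other group. Values are log2 values centred on each probe set's median over the arrays. A value of 0 is therefore the middle array and not absence, levels of different genes cannot be compared, and whether epithelium is present in a pool cannot be read from marker levels. The number of arrays limits the precision.

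Before a cell divides it copies its DNA and then separates the copies. The Mcm2 to Mcm7 proteins form the helicase that opens DNA, Cdt1, Cdc45, Gins1 and Mcm10 load or activate it, Pcna is the clamp that holds DNA polymerase on the template, and Rrm1, Tyms and Tk1 supply nucleotides. Cdk1 with cyclins A and B drives the cell into mitosis, Aurora and Polo-like kinases build the spindle, and Ect2, Racgap1 and Kif23 place the cleavage furrow. In the mammary gland, loss of the ovaries leaves the epithelium with little division, and estrogen is known to restart it. Genes of the S phase are textbook targets of E2F factors, while mitosis genes are known for a promoter element called CHR, often with CCAAT boxes that bind NF-Y.

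Promoters of the replication and of the mitosis genes held different letters. RefSeq promoters of the GRCr8 build, 250 bases before the start and 50 after it, were at hand for 48 of the 59 members (none for Aurkb, Ccna2, Ccne2, Cdc6, E2f1, Foxm1, Mcm4, Racgap1, Rrm2, Tpx2 and Ube2c) and for 27457 genes in all. On either strand, the CHR letters TTTGAA or TTCGAA were present in 22 of 31 mitosis promoters (71.0%), in 3 of 17 replication promoters (17.6%) and in 19.5% of all promoters. The E2F letters TTTCGCGC, TTTGGCGC, TTCCCGCC or TTCGCGCC, which can overlap one another, were present in 10 of 17 replication promoters (58.8%), 3 of 31 mitosis promoters (9.68%) and 3.19% of all. CCAAT was found in 71.0% of mitosis and 64.7% of replication promoters, against 37.7% of all. At least 2 copies were present in 48.4%, 41.2% and 11.5%. These are counts of letters with no test, and a match is not shown to be a bound site. Promoters of 2 replication and 2 mitosis genes are shown with these letters in capitals, the replication and the mitosis gene of smallest p for E2 (Mcm7 and Kif23), Mcm6, the member of smallest p for a difference in E2 response between the diets, and Cdk1, the central mitotic kinase.
Mcm7 (chr12:22163179-22163428, minus strand): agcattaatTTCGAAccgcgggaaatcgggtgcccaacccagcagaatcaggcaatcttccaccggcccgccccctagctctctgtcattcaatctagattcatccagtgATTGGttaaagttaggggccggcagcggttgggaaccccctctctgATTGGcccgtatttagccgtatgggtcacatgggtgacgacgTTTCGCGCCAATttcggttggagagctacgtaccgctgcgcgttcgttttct
Mcm6 (chr13:42404353-42404602, minus strand): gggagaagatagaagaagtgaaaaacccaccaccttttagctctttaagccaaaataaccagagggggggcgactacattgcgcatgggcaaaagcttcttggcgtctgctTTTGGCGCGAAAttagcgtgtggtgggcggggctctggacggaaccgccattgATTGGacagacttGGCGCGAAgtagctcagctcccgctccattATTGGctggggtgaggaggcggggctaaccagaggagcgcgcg
Kif23 (chr8:71320585-71320834, minus strand): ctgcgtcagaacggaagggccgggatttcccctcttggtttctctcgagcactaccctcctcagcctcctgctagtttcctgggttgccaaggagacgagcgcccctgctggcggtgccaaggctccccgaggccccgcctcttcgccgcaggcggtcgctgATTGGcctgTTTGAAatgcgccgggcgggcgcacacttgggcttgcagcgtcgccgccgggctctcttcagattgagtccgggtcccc
Cdk1 (chr20:19265043-19265292, plus strand): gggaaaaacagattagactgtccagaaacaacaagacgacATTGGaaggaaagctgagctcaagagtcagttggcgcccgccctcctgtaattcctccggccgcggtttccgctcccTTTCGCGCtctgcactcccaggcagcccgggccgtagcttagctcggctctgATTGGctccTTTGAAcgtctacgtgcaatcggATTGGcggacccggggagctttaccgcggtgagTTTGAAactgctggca
Each run is 250 bases of GRCr8 read 5′ to 3′ and ends at the base before the annotated start. The Mcm7 run holds 2 overlapping E2F matches that begin 52 and 51 bases before the start, beside 3 CCAAT boxes and 1 CHR match far upstream. The Mcm6 run holds 4 E2F matches at 2 places and no CHR match. In Kif23 a CCAAT box (ATTGG on this strand) begins 88 bases before the start and a CHR match 79 before it. Cdk1 has the same pair at 81 and 72 bases, and the 250 bases also hold a second CHR match and 1 E2F match.

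E2 raised many of the cell division genes. With both diets averaged, 27 of the 52 measured members rose (22 of 33 mitosis and 5 of 19 replication genes) and 0 fell at a Benjamini-Hochberg adjusted p under 0.05 over all genes. Among all genes tested, 6.73% rose and 5.51% fell in this comparison. The estimate was above 0 for 51 of the 52. The median log2 difference, E2 minus vehicle, was 0.54 over the mitosis genes and 0.30 over the replication genes, against 0 over all genes tested. Differences were modest in size, from -0.03 for Tyms to 0.95 for Melk, and 43 of the 52 had an unadjusted p under 0.05, as did 29% of all genes. In 16 members, 14 of them mitosis genes, all 5 samples with E2 lay above all 6 without, which 4.26% of all genes did.

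Mki67, the gene of the Ki-67 proliferation antigen, stood at -0.02, -0.60 and -0.61 in casein pools 1 to 3 and at 0.15 and 0.23 in casein plus E2. In soy pools 1 to 3 it stood at -0.77, -0.98 and -0.36, and in soy plus E2 pools 1 to 3 at 0.32, 0.81 and 0.02. All samples with E2 lay above all without, though soy plus E2 pool 3 exceeded casein pool 1 by little. The difference was 0.84 ± 0.18 (log2, ± SE of the fit; adjusted p = 0.0203), a 1.79-fold increase. Top2a, the topoisomerase that untangles sister DNA, rose by 0.64 and the condensin subunit gene Smc2 by 0.41, also with chromosome structure as their role. Smc4, the partner of Smc2 in condensin, differed by 0.07 ± 0.15 and did not pass.

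Among cyclins and mitotic kinases 7 of 9 measured genes rose. Cdk1 lay at -0.16, -0.18 and -0.59 in casein pools 1 to 3 and at 0.16 and 0.51 in casein plus E2. Its values in soy pools 1 to 3 were -0.93, -0.90 and -0.30, and in soy plus E2 pools 1 to 3 they were 0.45, 0.57 and 0.22. With and without E2 the values did not overlap, and Cdk1 rose by 0.89 ± 0.15 (adjusted p = 0.0109, 1.85-fold). Melk, a kinase gene of dividing cells, lay at -0.07, -0.59 and -0.55 in casein, 0.46 and 0.41 in casein plus E2, -0.79, -0.86 and -0.40 in soy and 0.43, 0.64 and 0.07 in soy plus E2. It too did not overlap, and it had the largest difference of the members, 0.95 ± 0.14 (adjusted p = 0.0083, 1.93-fold). Aurka, the Aurora kinase of the spindle poles, was at -0.08, -0.03 and -0.46 in casein and at 0.63 and 0.99 in casein plus E2. It was at -0.16, -0.20 and 0.03 in soy and at 0.49, 0.40 and -0.03 in soy plus E2. Only soy plus E2 pool 3 fell within the range of the vehicle samples, and Aurka rose by 0.70 ± 0.13 (adjusted p = 0.0134). The cyclin genes Ccna2 (0.74) and Ccnb2 (0.60), the centriole kinase gene Plk4 (0.66) and Plk1 (0.43) rose as well. Ccnb1 (0.55 ± 0.19, adjusted p = 0.0882) and Aurkb (0.58 ± 0.18, adjusted p = 0.0663) did not pass.

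**Figure D1:**
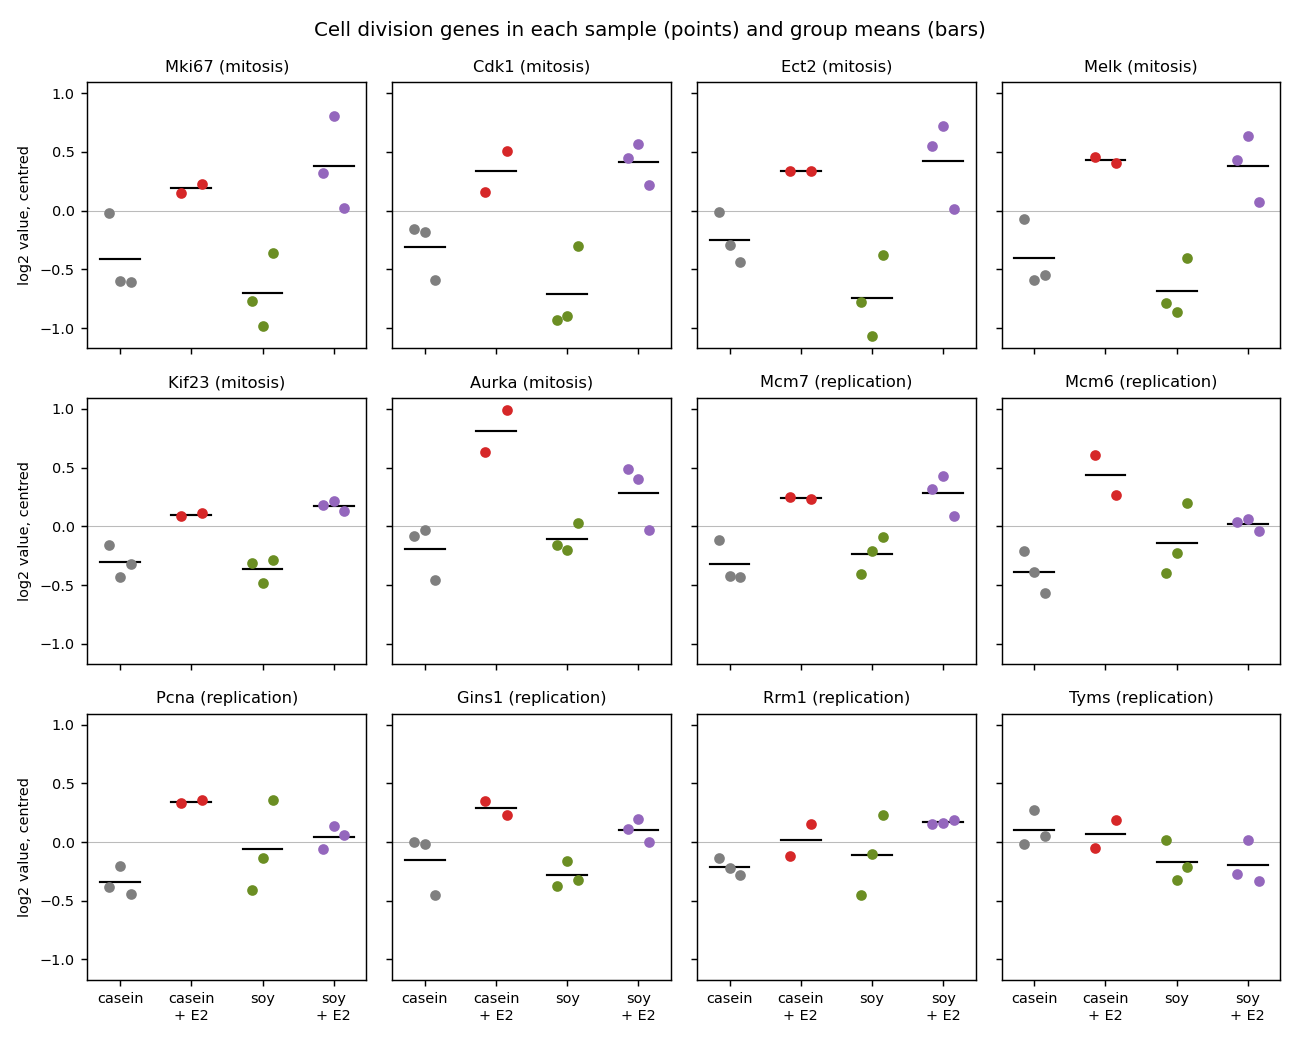
Centred log2 value (y axis) of 12 cell division genes in each sample, by group (x axis; points are samples, bars are group means, casein plus E2 has 2 samples). Mki67, Cdk1, Ect2, Melk, Kif23 and Mcm7 have all points with E2 above all points without, while Pcna and Rrm1 have a soy point among the highest and Tyms shows no such separation.

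Genes of cytokinesis, the splitting of the cell body, rose in 4 of 5 cases. Ect2, which activates RhoA at the cleavage furrow, was at -0.01, -0.29 and -0.44 in casein, at 0.34 in both casein plus E2 samples, at -0.78, -1.07 and -0.38 in soy and at 0.55, 0.72 and 0.01 in soy plus E2. The samples with E2 did not overlap those without, soy plus E2 pool 3 coming closest, and Ect2 rose by 0.87 ± 0.16 (adjusted p = 0.0145, 1.83-fold). Kif23, a motor of the central spindle, had the smallest p of the members. It was at -0.16, -0.43 and -0.32 in casein, 0.09 and 0.11 in casein plus E2, -0.31, -0.48 and -0.29 in soy and 0.18, 0.22 and 0.13 in soy plus E2. Its samples were tight within groups and did not overlap, and it rose by 0.47 ± 0.07 (adjusted p = 0.00807). Its 2 probe sets differed, with estimates of 0.79 and 0.14. Racgap1 (0.59) and Kif20a (0.58) rose too, and Prc1 (0.27 ± 0.12, adjusted p = 0.168) did not pass.

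Both measured partners of the anaphase-promoting complex, the ubiquitin ligase that ends mitosis, rose. Ube2c was at -0.26, 0 and -0.52 in casein, 0.35 and 0.43 in casein plus E2, -0.40, -0.79 and -0.03 in soy and 0.52, 0.54 and 0 in soy plus E2. Soy plus E2 pool 3 and casein pool 2 met at 0, and the other samples separated, with a rise of 0.70 ± 0.16 (adjusted p = 0.0263). Cdc20 rose by 0.38, with estimates from 0.09 to 0.52 over its 5 probe sets. Kinetochore genes rose in 3 of 4 cases, Spc25 by 0.54, Cenpf by 0.53 and Nuf2 by 0.51, while Cenpe (0.46 ± 0.17, adjusted p = 0.108) did not pass. Cenpf stood at 0.13, -0.08 and -0.30 in casein against -0.02 and 0.24 in casein plus E2, so these groups overlapped. It stood at -0.45, -0.69 and -0.28 in soy against 0.51, 0.64 and 0.02 in soy plus E2, which did not.

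Of the spindle genes Nusap1, a microtubule-binding protein, rose by 0.70 ± 0.13 (adjusted p = 0.0141). Its values were -0.22, -0.20 and -0.34 in casein, 0.38 and 0.48 in casein plus E2, -0.56, -0.60 and -0.06 in soy and 0.39, 0.54 and -0.02 in soy plus E2. Soy plus E2 pool 3 and soy pool 3 lay closest to each other but did not cross. The motor genes Kif11 (0.56 ± 0.17, adjusted p = 0.06) and Kif2c (0.25) did not pass. The spindle checkpoint holds anaphase until chromosomes are attached, and of 5 genes, 4 of this checkpoint and the passenger gene Birc5, 1 rose. Bub1 was at -0.18, -0.09 and -0.35 in casein, 0.22 and 0.08 in casein plus E2, -0.12, -0.70 and -0.06 in soy and 0.28, 0.55 and 0.25 in soy plus E2, without overlap, and rose by 0.51 ± 0.13 (adjusted p = 0.0339). Ttk (0.40), Bub1b (0.39), Mad2l1 (0.31) and Birc5 (0.22) did not pass. Foxm1, the transcription factor that drives many mitosis genes, rose by 0.29 ± 0.07 (adjusted p = 0.0322). Its 2 probe sets differed, with estimates of 0.46 and 0.12. Foxm1 was at -0.02, -0.19 and -0.18 in casein, 0.13 and -0.08 in casein plus E2, -0.18, -0.27 and -0.21 in soy and 0.15, 0.33 and 0.11 in soy plus E2. Its soy groups did not overlap and its casein groups did, and the difference between the diets did not pass (0.26 ± 0.14, adjusted p = 0.792).

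**Figure D2:**
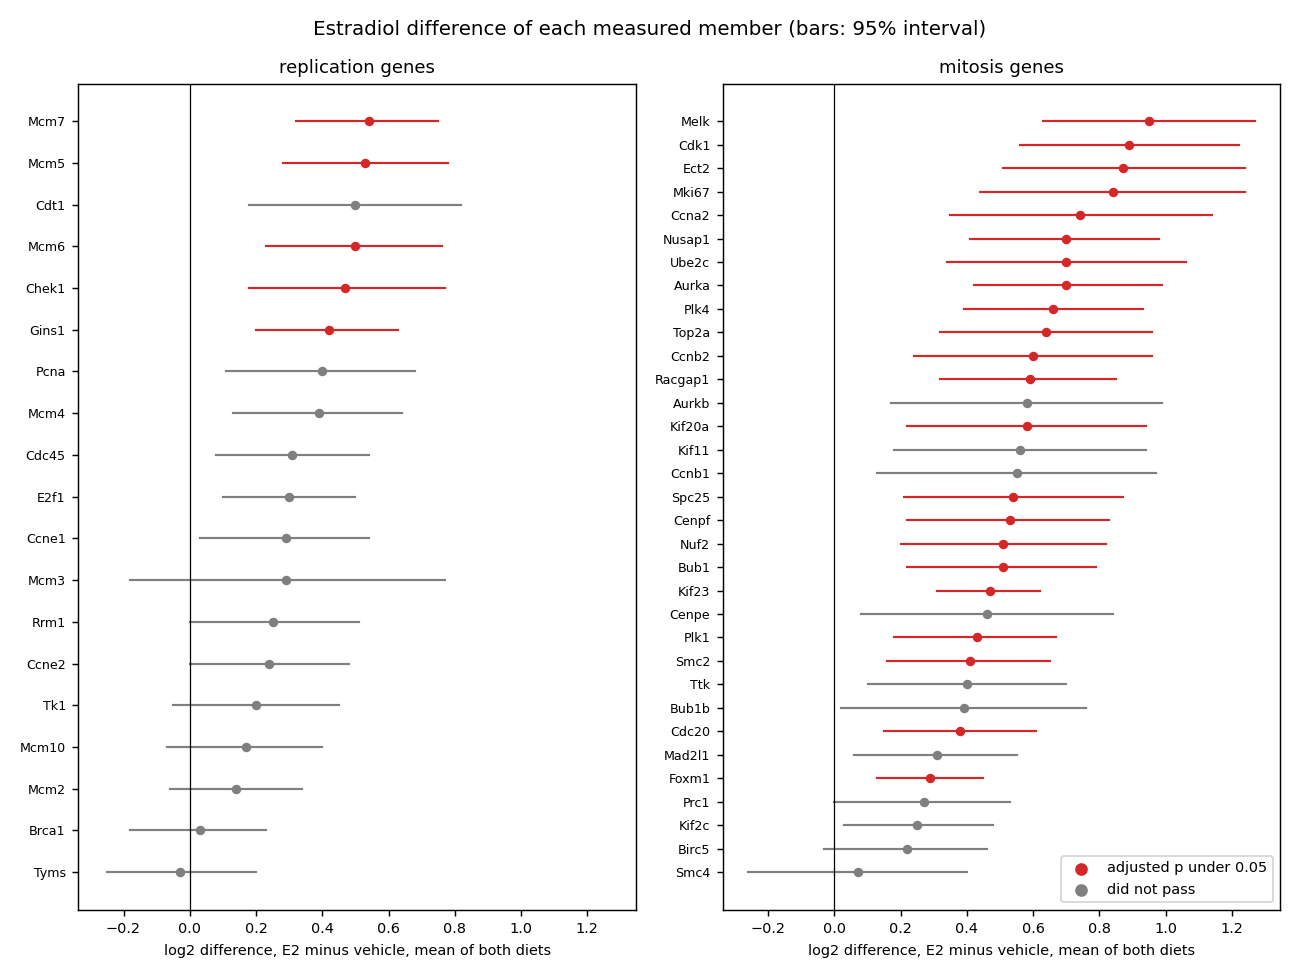
Log2 difference between E2 and vehicle averaged over both diets (x axis) for each measured replication gene (left) and mitosis gene (right), with points for estimates, bars for the interval of 95% confidence and red for an adjusted p under 0.05. Melk (0.95) and Cdk1 (0.89) lead the mitosis genes and Mcm7 (0.54) the replication genes, and Tyms (-0.03) is the only estimate below 0.

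Of the 6 helicase subunit genes 3 rose, Mcm7 by 0.54, Mcm5 by 0.53 and Mcm6 by 0.50. Mcm7 stood at -0.12, -0.42 and -0.43 in casein, 0.25 and 0.23 in casein plus E2, -0.41, -0.21 and -0.09 in soy and 0.32, 0.43 and 0.09 in soy plus E2. The E2 samples lay above all others, with a standard error of 0.10 and adjusted p = 0.0129. Mcm6 stood at -0.21, -0.39 and -0.57 in casein and at 0.61 and 0.27 in casein plus E2, but at -0.40, -0.23 and 0.20 in soy and at 0.04, 0.06 and -0.04 in soy plus E2. The casein groups were far apart and the soy groups overlapped. Mcm4 (0.39 ± 0.11, adjusted p = 0.0551), Mcm3 (0.29 ± 0.21) and Mcm2 (0.14 ± 0.09) did not pass.

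Of 4 measured loading and activation genes 1 rose, Gins1, a subunit of the GINS complex of the active helicase. Gins1 was at 0, -0.02 and -0.45 in casein, 0.35 and 0.23 in casein plus E2, -0.37, -0.16 and -0.32 in soy and 0.11, 0.20 and 0 in soy plus E2. It rose by 0.42 ± 0.10 (adjusted p = 0.0271), with casein pool 1 and soy plus E2 pool 3 both near 0. Cdt1 (0.50 ± 0.14, adjusted p = 0.0503), Cdc45 (0.31) and Mcm10 (0.17) did not pass. The clamp gene Pcna was at -0.38, -0.20 and -0.44 in casein, 0.33 and 0.36 in casein plus E2, -0.41, -0.14 and 0.36 in soy and -0.06, 0.14 and 0.06 in soy plus E2. Soy pool 3, a vehicle sample, was as high as the highest E2 sample, and the difference of 0.40 ± 0.13 did not pass (adjusted p = 0.0736). Without soy pool 3 the estimate was 0.50 ± 0.08 (limma, adjusted p = 0.0182). That pool held the highest Pcna value without E2, so its removal could only raise the estimate. The pass is therefore no evidence that Pcna rose.

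No nucleotide supply gene passed. Rrm1, the large ribonucleotide reductase subunit, lay at -0.14, -0.22 and -0.28 in casein, -0.12 and 0.15 in casein plus E2, -0.45, -0.10 and 0.23 in soy and 0.15, 0.16 and 0.19 in soy plus E2 (difference 0.25 ± 0.11, adjusted p = 0.176). Its soy groups overlapped through soy pool 3. Tk1 (0.20) and the thymidylate synthase gene Tyms (-0.03 ± 0.10, 95% interval -0.25 to 0.20) did not pass either. Of the genes for S phase entry 0 of 3 passed. E2f1, itself an E2F factor, was at 0.09, -0.11 and -0.16 in casein, 0.49 and 0.28 in casein plus E2, 0.05, -0.32 and -0.15 in soy and -0.05, 0.12 and -0.05 in soy plus E2. The casein groups separated and the soy groups did not, and the difference was 0.30 ± 0.09 (adjusted p = 0.0568). The cyclin E genes Ccne1 (0.29) and Ccne2 (0.24) did not pass. Of the checkpoint and repair genes Chek1, a kinase gene that halts the cycle on damaged DNA, rose by 0.47 ± 0.13 (adjusted p = 0.0462), and Brca1 differed by 0.03 ± 0.09. Chek1 stood at 0, -0.20 and -0.02 in casein, 0.48 and 0.32 in casein plus E2, -0.65, -0.33 and 0 in soy and -0.04, 0.45 and 0.03 in soy plus E2, with overlap in the soy groups.

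Other genes of the same processes were counted in the same way, beside 6.73% of all genes that rose and 5.51% that fell. Of 36 measured further replication genes 12 rose and 2 fell (median 0.32), with the clamp loader genes Dscc1 at 0.82 and Rfc3 at 0.55, the polymerase epsilon gene Pole at 0.77, the primase gene Prim1 at 0.80 and the fork protection gene Timeless at 0.60. Of 52 measured further mitosis genes 24 rose and 0 fell (median 0.41), with the kinetochore gene Spc24 at 0.87, Cdca3 at 0.80, Incenp of the chromosomal passenger complex at 0.75, the microtubule regulator Stmn1 at 0.57 and the motor gene Kifc1 at 0.59. Of 15 measured genes of the E2F, pocket protein and MuvB factors that switch both gene sets on and off 5 rose. They were the retinoblastoma gene Rb1 at 0.82, Lin9 at 0.51, E2f8 at 0.64, Rbl1 at 0.36 and Tfdp1 at 0.24.

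In casein-fed rats alone E2 raised 2 of the 52 members, and 1.48% of all genes rose in that comparison. Aurka rose by 1.01 ± 0.19 (adjusted p = 0.0369, 2.01-fold) and Mcm6 by 0.83 ± 0.18 (adjusted p = 0.0467, 1.78-fold). In 41 members both casein plus E2 samples lay above all casein pools, against 22.5% of all genes. In soy-fed rats 0 members passed, with 0.183% of all genes higher, and 34 of the 52 had an unadjusted p under 0.05, as did 20.6% of all genes. The members of smallest p there, picked after their values were seen, were Kif23 (0.53 ± 0.09), Cdk1 (1.13 ± 0.20) and Melk (1.06 ± 0.19), each with limma adjusted p = 0.0605, followed by Ect2 (1.17 ± 0.22, adjusted p = 0.0654). In 26 members, 21 of them mitosis genes, the soy plus E2 pools lay above all soy pools, which 12.6% of all genes did. Without soy plus E2 pool 3, 15 members passed in soy-fed rats, in a fit that called 5.35% of all genes in either direction. That pool had the lowest member median of the E2 samples (0.01). Its removal favoured higher estimates, so the count is no evidence of a rise. Aurka and Mcm6 in casein-fed rats did not both hold when arrays were left out, as 0 members passed without casein pool 1, 2 or 3, casein plus E2 pool 1, the averaged casein plus E2 sample, soy pool 2 or soy plus E2 pool 2, and 1 passed without soy plus E2 pool 1. In this diet 5 passed without soy pool 1, and 3 without soy pool 3 or soy plus E2 pool 3. Except without the averaged sample, a share given further below, the shares of all genes called in these casein fits are not given. The counts therefore do not single out the members.

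Whether soy changed the response was tested by the difference of the E2 effects, soy-fed minus casein-fed. No member passed, as no gene did (0% of all genes), and 3 members had an unadjusted p under 0.05 in limma, as did 6.53% of all genes, a share the members do not exceed. Mcm6 (-0.67 ± 0.24, 95% interval -1.21 to -0.13, adjusted p = 0.669) and Aurka (-0.61 ± 0.25, interval -1.18 to -0.04) had larger estimates in casein-fed rats. Cenpf (0.66 ± 0.27, interval 0.05 to 1.28) and Ect2 (0.59 ± 0.32, interval -0.14 to 1.31) had larger ones in soy-fed rats. The medians were -0.04 over replication and 0.16 over mitosis genes, and -0.01 over all genes. That no member passed does not show that the responses were alike. For lymphocyte markers the E2 estimates also differed between the diets. All 14 measured markers were above 0 in casein-fed rats (median 0.78), and 13 of 14 were below 0 in soy-fed rats (median -0.36). No marker passed for the difference between the diets (limma, smallest adjusted p = 0.57). The marker mean varied widely within a group, from -1.30 in soy pool 1 to 2.04 in soy pool 3. The part of these markers in the diet estimates was not tested.

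**Figure D3:**
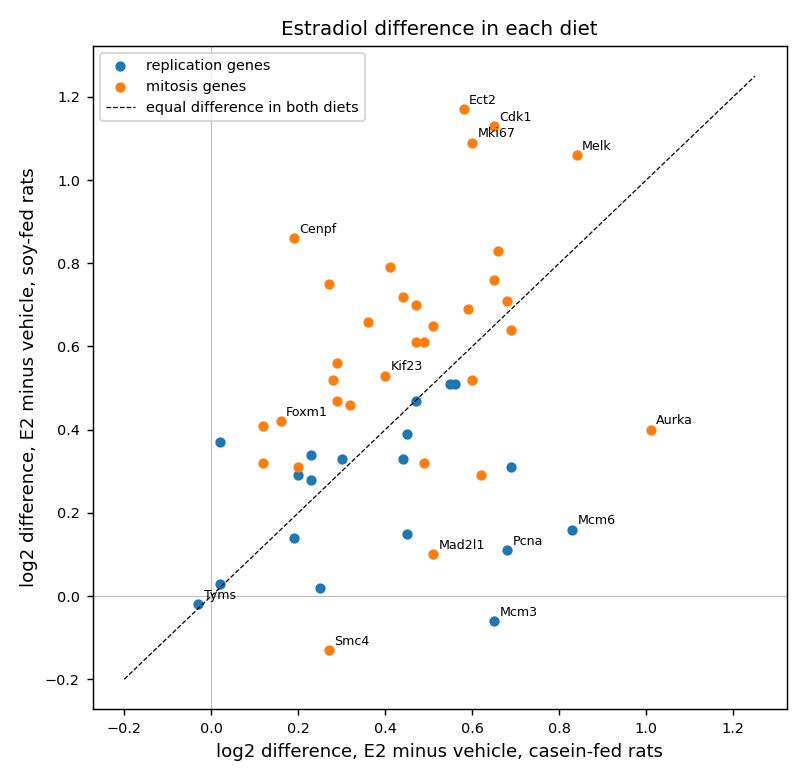
Log2 difference between E2 and vehicle in casein-fed rats (x axis) and in soy-fed rats (y axis) for the 52 measured members, blue for replication and orange for mitosis, with a dashed line where both are equal. Ect2, Cdk1, Mki67 and Cenpf lie above the line and Aurka, Mcm6, Pcna and Mcm3 below it, and no member's distance from the line passed the test.

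No member passed the test of soy against casein. Without E2, 0 of the 52 passed (0% of all genes), 4 had an unadjusted p under 0.05 in limma (10.4% of all genes did) and the median difference, soy minus casein, was -0.07. Mad2l1 (0.43 ± 0.15) and Mcm3 (0.74 ± 0.28) were on the higher side and Ect2 (-0.50 ± 0.22) and Cenpf (-0.39 ± 0.18) on the lower side, with adjusted p from 0.43 to 0.505. Without soy pool 1, 2 members passed higher, in a fit that called 2.3% of all genes in either direction. With E2 in both groups, 0 members passed (0.00703% of all genes, 1 gene), 3 had an unadjusted p under 0.05 (5.1% of all genes did) and the median was 0.03. E2f1 (-0.38 ± 0.13) and Aurka (-0.52 ± 0.19) were lower in soy plus E2 without overlap. Of the 52 members 6 were lower and 4 higher without overlap, as were 1817 and 1490 of the 14217 genes. Cenpf (0.28) and Foxm1 (0.17) were the higher members of smallest p. None of these passed (adjusted p from 0.847 to 0.999).

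Pools of a group differed in how active the set was. The median of the 52 members was -0.05, -0.18 and -0.41 in casein pools 1 to 3, 0.11 and 0.19 in casein plus E2, -0.40, -0.37 and -0.01 in soy pools 1 to 3 and 0.18, 0.38 and 0.01 in soy plus E2 pools 1 to 3. Soy plus E2 pool 2 was the highest sample for 32 of the 52 members, and soy pool 2 the lowest for 23 and casein pool 3 for 14. Soy pool 3 was the vehicle sample nearest to the E2 samples and had the highest value of all for Mcm2, Mcm3, Pcna, Rrm1, Mad2l1 and Smc4. The median within-group SD was 0.25 for mitosis genes, 0.19 for replication genes and 0.16 for all genes. Mcm3 varied most (0.40), from -0.79 in casein pool 3 to 0.69 in soy pool 3.

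Markers of other cells moved beside these values. RNA was of whole glands, in which fewer cells of a type and less RNA per cell cannot be told apart. In the comparison averaged over both diets, 6.73% of all genes rose and 5.51% fell. Of 18 luminal epithelium markers 9 rose with E2 and 0 fell (median 0.99). Their mean ran from -1.38 to -0.05 in the vehicle samples and from -0.05 to 0.51 in the E2 samples, lowest in soy pool 3 and, among E2 samples, lowest in soy plus E2 pool 3. Adipocyte markers ran the other way, with 9 of 11 lower (median -1.05) and means from 0.03 to 0.93 without E2 and -1.51 to 0.05 with it. Of the other lists, 4 of 9 basal epithelium markers rose (median 0.59), while 6 of 7 mast cell (median -1.67), 3 of 6 endothelium (median -0.49), 3 of 5 erythroid (median -0.44) and 1 of 8 macrophage markers (median -0.25) fell. Mast cell means ran from 0.23 to 0.94 without E2 and from -1.44 to -0.21 with it. The part of cell makeup in the rise of cell division genes was not tested. Of 14 measured lymphocyte markers, which also mark lymph node tissue, 0 passed for E2 (limma, 0 also at an unadjusted p under 0.05), but their mean spread from -1.30 in soy pool 1 to 2.04 in soy pool 3. The 4 measured germinal centre markers had their highest mean, 0.75, in soy pool 3 as well. With the lymphocyte mean as a covariate 29 members passed, the 27 above among them. There E2f1 (0.32 ± 0.07, adjusted p = 0.0194) and Cdt1 (0.51 ± 0.15, adjusted p = 0.0463) passed too. Without soy pool 3, 34 passed, 25 of them among the 27. This pool had the highest member median of the vehicle samples, so its removal favoured higher E2 estimates. The shares of all genes called in these fits are not given, so the counts do not single out the members.

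**Figure D4:**
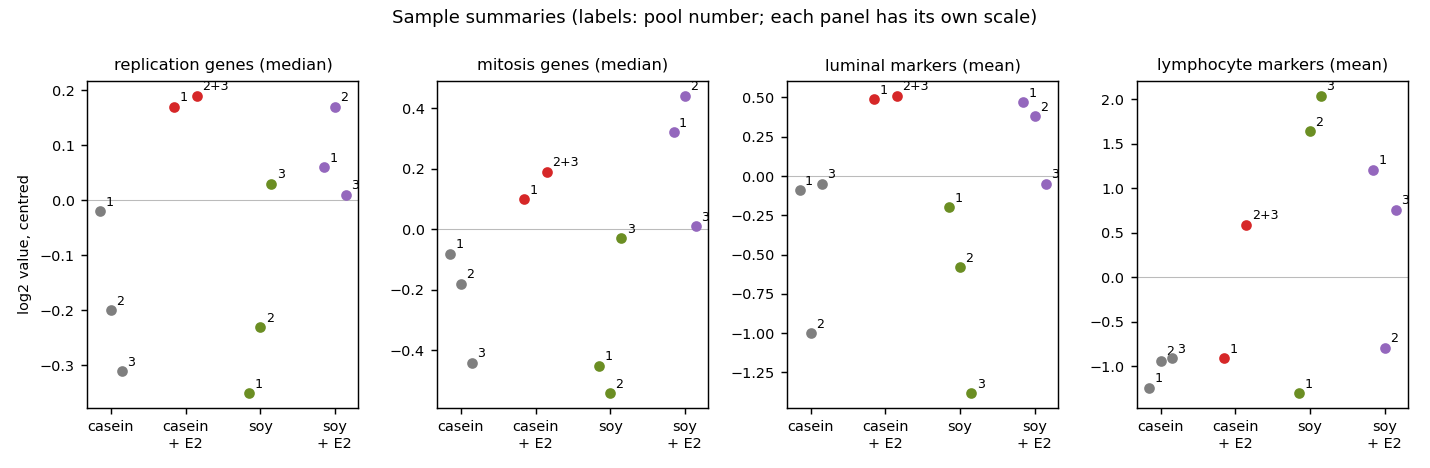
Median centred log2 value of the replication and of the mitosis genes, and mean of luminal and of lymphocyte markers (y axes, each on its own scale), per sample by group (x axis), labelled by pool number. Soy pool 3 has the highest replication and mitosis medians (0.03 and -0.03) of the vehicle samples together with the lowest luminal mean (-1.38) and the highest lymphocyte mean (2.04).

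The fit of all samples called 6.73% of all genes higher and 5.51% lower. Most counts below lack that share for their own fit. They cannot tell a loss particular to the members from a loss over all genes. Single arrays weighed on the count of 27. It was 4 with pool 1 of casein plus E2 left out, a fit in which the lone remaining sample of its group borrows the spread of the rest, 11 without soy plus E2 pool 1 or pool 2, 14 without casein pool 2 or soy pool 2, the pools with the highest skeletal muscle marker means (3.81 and 4.10), and 16 without casein pool 3, the pool whose liver markers had a mean of 5.66 against at most 0.33 elsewhere. Leaving out casein plus E2 pool 2 or pool 3 alone keeps a near copy in the fit. With both left out, a setting added after seeing the data, 5 members passed (Cdk1, Melk, Kif23, Plk4 and Racgap1), with 2.62% of all genes called in either direction. Cdk1, Melk and Kif23 passed in that fit and without each of the 12 arrays in turn. Transcripts spiked in at hybridisation split the arrays into 6 with a mean above 0 and 6 below. With this split as a term 23 members passed, 21 of the 27 among them. The same split parted the samples by lymphocyte marker mean, -1.30 to -0.79 above 0 and 0.59 to 2.04 below 0. The spike-in term and the lymphocyte covariate therefore cannot be told apart here. Within the arrays above 0 the median difference was 0.63 for mitosis and 0.49 for replication genes (2 samples with E2 and 4 without), and within those below 0 it was 0.45 and 0.18 (3 with E2 and 2 without). Of the 52 members 51 and 48 were higher with E2 in the respective sets. Diet was not balanced in either set. The set below 0 held no casein vehicle pool, its samples without E2 being soy pools 2 and 3. Above 0 the samples without E2 were casein pools 1 to 3 and soy pool 1. Those with E2 there were casein plus E2 pool 1 and soy plus E2 pool 2.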

How the data were processed

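RNA of pooled abdominal mammary glands (8 µg, biotin) was labelled for Affymetrix arrays, per the labels' protocols. The authors deposited 1 table of 31099 probe sets on 12 arrays. The submitters' processing notes name GCOS and give no version. How the authors summarised and normalized the arrays, and the log base, is not given in the sources used here. Judged by its range, the deposited table is on a log2 scale (values of 1 probe set span at most 9.85). Each probe set is centred on its median over the arrays, so background, detection and a filter on dim probe sets could not be used. The arrays' medians ran from -0.0246 to 0.0112 and no further normalization was applied.

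Gene names came from the platform annotation (20826 probe sets with 1 gene symbol, 436 with several, which were not used). Several probe sets of 1 gene were averaged. Of the members 36 had 1 probe set and 16 several, whose E2 estimates spread by at most 0.65. The 11 samples entered 1 linear model with a mean for each of the 4 groups, which left 7 residual degrees of freedom. It was fitted in R 4.3.3 with limma 3.58.1 (eBayes without a trend), two-sided, with Benjamini-Hochberg adjustment over all 14217 genes. Errors are standard errors of that fit. The E2 average weighs both diets the same. The code was tested on simulated data.

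The members, marker lists and tests were chosen with earlier results of these data known. Given in full were Mki67, Cdk1, Ect2, Aurka, Mcm6, Pcna and the member of smallest p in each role. Given by estimate were the 5 members of largest p, members called in 1 diet, the 2 of smallest p in each direction for the other contrasts, and up to 5 called genes of each further list. For genes with several annotated starts the first in the RefSeq table was used. Pool numbers were not used to pair the samples in the main fit. Correlations of same-numbered arrays' deviations from their group means ran from -0.42 to 0.46, against -0.414 to 0.433 for other pairs. With few arrays per group this does not exclude pairing. Alternatives were quantile normalization, 1 probe set per gene, 12 separate arrays, pool number as a block, the spike-in split, a lymphocyte covariate, only the contrast's groups, array weights, leaving out each array and, added later, leaving out the averaged sample.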

Additional observations from a re-analysis of the deposited data

How the results depend on the processing

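For E2 averaged over both diets, the member medians kept their direction and moved by less than the spread between pools in every alternative run (0.27 to 0.37 for replication and 0.47 to 0.64 for mitosis genes). The count of members called was 9 with the replicate block, 30 with the replicate block and 12 separate arrays, 35 with 12 separate arrays, 40 with array weights, 26 with quantile normalization and 28 with 1 probe set per gene, and 4 to 34 when 1 array was left out. It was 5 without the averaged sample of casein plus E2 pools 2 and 3, chosen after seeing the data. Calls over all genes moved too, from 12.2% to 3.52% with the replicate block and 23.3% with array weights. For the other settings that share is not given here, so their counts are not results about the members alone. In the labels same-numbered pools share only a number, and 2 of 12 arrays correlated best with an array of their own number. With few arrays per group this does not exclude pairing, and the block is given as a setting alone.

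In casein-fed rats, where 2 passed, the count was 0 with the replicate block, 6 with the replicate block and 12 separate arrays, 12 with 12 separate arrays, 7 with array weights, 1 with 1 probe set per gene, 1 with the spike-in split, 0 with only the contrast's groups, 0 without the averaged sample, and 0 to 5 when 1 array was left out. The same fits called 0.0352% (replicate block), 5.77%, 9.63%, 9.9%, 2%, 1.73%, 1.41% and 0.0211% of all genes in this order, against 2.43%. In soy-fed rats, where 0 passed, it was 3 with quantile normalization (1.65% of all genes called), 6 with 12 separate arrays (1.59%), 31 with array weights (14.3%) and 0 to 15 when 1 array was left out (5.35% at 15). For soy without E2 it was 6 with array weights (3 higher and 3 lower, with 11.2% of all genes called, about the members' own share) and 0 to 2 when 1 array was left out. For the interaction and for soy with E2 it was 0 in each alternative run. The causes were not tested. Among the 18 members given in full, no E2 estimate changed sign in an alternative, 300 alternative fits stayed on the same side of the threshold, 67 lost a call and 11 gained one. A dim-probe filter and other background corrections could not be run on centred values.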

Other observations

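Chosen after their values were seen, 2 of the 36 measured replication genes outside the set went against it. This count is near the share of all genes that fell (5.51%) and is not a result about replication genes. Mcm8, a helicase of DNA repair, fell by 1.28 with E2 averaged over both diets (-1.28 ± 0.28, adjusted p = 0.0226). It stood at 0.71, 0.36 and 1.77 in casein pools 1 to 3, at -0.45 and -0.63 in casein plus E2, at 1.44, 0.90 and 0.18 in soy and at -0.30, -0.20 and -0.18 in soy plus E2, with no overlap between samples with and without E2. Pola2, the regulatory subunit of DNA polymerase alpha, fell by 0.60 (-0.60 ± 0.14, adjusted p = 0.0289), from 0.15, 0.52 and -0.04 in casein to -0.32 and -0.66 in casein plus E2, and from 0.56, 0.21 and 0.06 in soy to -0.41, -0.28 and 0.04 in soy plus E2. Each rests on 1 probe set. Rb1, whose protein restrains E2F factors, was at 1.0 and 0.73 in casein plus E2 against -0.19 to -0.02 in casein, and at 0.53, 0.66 and 0.02 in soy plus E2 against -0.12, -0.22 and -0.49 in soy. By promoter, the 10 measured replication genes with an E2F match had a median E2 difference of 0.44 and held all 5 called replication genes, and the 6 without a match had 0.24. Among mitosis genes the 20 with a CHR match had 0.49 and the 8 without had 0.56. No test was made of these medians.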
